A study of Rattus norvegicus with 20 samples.

Results

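Bdh1, the gene of the mitochondrial enzyme 3-hydroxybutyrate dehydrogenase, was followed over 20 arrays from the red, oxidative portion of the tibialis anterior, a muscle of the rat shin. It was taken as the single row of the deposited table that carried Bdh1 as its only gene symbol, 1 of 14557 genes measured in this way, and no other row named it. Bdh1 was chosen by a measured value, because it differed between obese and lean control muscle in these same arrays, so its values in any comparison that holds those arrays are given as a description, with no test. The arrays came from 4 groups of 5 male rats, labelled as biological replicates and caged singly. The labels' growth notes speak of ZDF rats for all samples, while the paper sets lean control rats apart from ZDF rats. Lean control rats ate a standard chow, and obese rats received a stock diet for 6 weeks. The rosiglitazone and resveratrol groups are named in the labels for the compound alone, which give no dose, duration or genotype for them. All 20 animals carry the strain label Zucker, and all arrays were made from 100 ng of total RNA of muscle tissue, in which fewer cells of a type and less RNA per cell cannot be told apart.

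The liver makes ketone bodies from fatty acids during fasting and in diabetes, and heart, skeletal muscle and brain burn them. In a muscle fibre, 3-hydroxybutyrate enters through monocarboxylate transporters and is oxidised to acetoacetate by Bdh1, which uses NAD+ and needs phosphatidylcholine of the inner mitochondrial membrane to be active. Oxct1 then passes coenzyme A from succinyl-CoA to acetoacetate, and Acat1 splits the product into acetyl-CoA for the citric acid cycle. Obese rats of this line carry a defective leptin receptor and turn diabetic with age, rosiglitazone is an agonist of the nuclear receptor PPARgamma, and resveratrol is a plant polyphenol.

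To place the gene, the 250 bases before its annotated start are shown as RefSeq gives them for the rat build GRCr8, at chr11:82842637-82842886 on the minus strand. Capitals mark exact matches to a GC box (GGGCGG) and to the core of the hypoxia element (ACGTG), both read here on the opposite strand.
Bdh1 upstream: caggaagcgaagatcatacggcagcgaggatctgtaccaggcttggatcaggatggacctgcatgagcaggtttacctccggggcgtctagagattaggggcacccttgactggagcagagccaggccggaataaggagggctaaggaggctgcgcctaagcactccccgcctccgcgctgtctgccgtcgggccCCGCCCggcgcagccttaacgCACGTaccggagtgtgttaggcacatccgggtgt
A GC box was found in 30.5% and the hypoxia core in 16.6% of 33469 rat promoter windows of the same length, so neither match sets the gene apart. Both strands were also searched for the E-box of clock factors (CACGTG, in 5.59% of windows), which contains the hypoxia core, for the nuclear receptor core AGGTCA (14.1%), for the PPAR direct repeat, which holds that core in tandem with 1 free base between (0.0508%), and for the ERR element TCAAGGTCA (0.388%), which contains the nuclear receptor core. These letters were not in this window. The window was 62.8% G or C, against a median of 51.2% over all windows.

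Bdh1 was highest in lean control muscle and low in the 3 other groups. On the log2 scale of the deposited values, the lean control arrays 1 to 5 stood at 4.0, 4.16, 2.91, 3.99 and 4.197, with a mean of 3.85 (SD 0.54, n = 5). Array 3 lay 1 unit or more below the others of its group. The obese arrays stood at 2.39, 2.20, 1.54, 2.54 and 2.75, with a mean of 2.28 (SD 0.46, n = 5). All 5 obese arrays lay below all 5 lean control arrays. The rosiglitazone arrays stood at 2.91, 2.52, 2.03, 2.97 and 3.13, with a mean of 2.71 (SD 0.44, n = 5), and 3 of them reached past the lowest lean control array. The resveratrol arrays were the most alike, at 2.40, 2.58, 2.42, 2.16 and 2.24, with a mean of 2.36 (SD 0.16, n = 5). They overlapped the obese and the rosiglitazone arrays and lay below every lean control array.

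The order of the means was therefore lean control, rosiglitazone, resveratrol, obese. Rosiglitazone and resveratrol are neighbours that overlapped in part, with 3 of 5 rosiglitazone arrays above every resveratrol array. Resveratrol and obese are neighbours whose means differed by less than 1 SD of either. In lean control, obese and rosiglitazone muscle alike, array 3 was the lowest of its group and array 5 the highest, whereas in resveratrol muscle array 4 was the lowest and array 2 the highest. The labels name no animal, litter or array strip that arrays of one number would share.

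**Figure D1:**
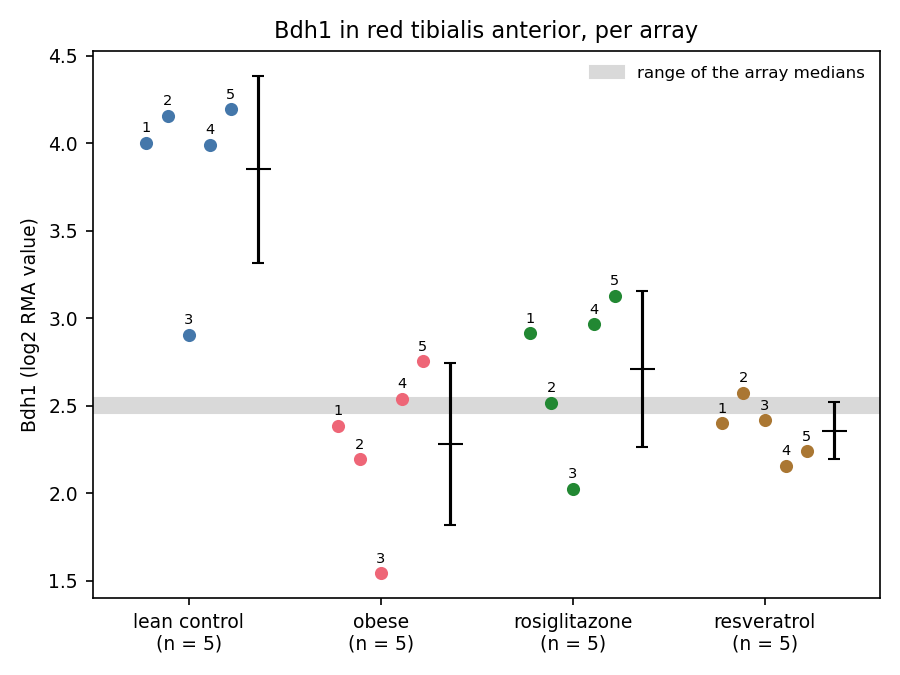
Log2 value of Bdh1 (vertical axis) on each of the 5 arrays of the 4 groups, with the replicate number above each point, the mean and SD as bars, and a grey band from the lowest to the highest array median. The lean control arrays sit at 2.91 or above, and the obese arrays, between 1.54 and 2.75, lie mostly at or below the band.

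Most Bdh1 values outside the lean control group were close to the middle of the array, where signal above background was not shown. The median of all rows of an array lay between 2.46 and 2.55. Bdh1 exceeded this median of its own array in 5 of 5 lean control, 4 of 5 rosiglitazone, 1 of 5 resveratrol and 1 of 5 obese arrays. The median of the 14557 genes alone was higher, between 2.89 and 2.97. Bdh1 exceeded that one in 4, 3, 0 and 0 of 5 arrays, in the same order. Averaged over the arrays of a group, 63.2% of genes were dimmer than Bdh1 in lean control muscle, 45.3% with rosiglitazone, 38.2% with resveratrol and 35.1% in obese muscle. Array values near background compress a difference, so the folds below are less certain than their standard errors.

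Obese against lean control was the comparison for which Bdh1 was chosen. The difference was -1.57 on the log2 scale (SE 0.24), a level 2.97-fold lower in obese muscle. At an adjusted p under 0.05 in limma, 0.00687% of genes were called, which is Bdh1 itself, and nothing is read from that. Arrays of the groups did not overlap in 2.36% of genes, 1.53% with obese lower. Against the same lean control arrays, resveratrol stood at -1.49 (SE 0.24), or 2.81-fold lower, where 1.11% of genes had all resveratrol arrays lower, and rosiglitazone at -1.14 (SE 0.24), or 2.20-fold lower. In the latter pair, 3 of the 25 pairs of arrays had the rosiglitazone array higher. The 3 differences share the lean control arrays.

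Liver markers stood out on lean control array 1, and Bdh1 is abundant in liver. Albumin, Alb, was at 8.30 on lean control array 1 and at 5.14, 3.03, 3.79 and 4.05 on arrays 2 to 5. It ranged from 2.47 to 4.09 in obese, 3.13 to 4.39 in rosiglitazone and 2.16 to 3.03 in resveratrol muscle. Array 1 was also the highest lean control array for Apob (3.19, against 1.62 to 2.09 on the others) and Ttr (3.62, against 2.30 to 2.94). The same held for Serpina1 (2.57, against 1.65 to 2.02) and, narrowly, for Tat (2.11, against 1.40 to 2.09). The mean of the 5 measured hepatocyte markers of 9 listed (Alb, Apob, Ttr, Tat and Serpina1) ranged from 2.17 to 3.96 over lean control, 2.13 to 2.34 over obese, 2.11 to 2.54 over rosiglitazone and 1.87 to 2.24 over resveratrol arrays. The value of 3.96 was that of lean control array 1. All 5 markers were negative in obese against lean control, with a median of -0.14, and none was called by limma. Of the 5, 4 had an obese mean below the array medians. Only Alb, at -1.73 (SE 0.61), had an unadjusted p under 0.05, against 10.8% of all genes. A rise on 1 array widens the spread of its group (SD of Alb 2.06 in lean control muscle), so nothing is read from the lack of calls. For Bdh1, array 1 ranked 3 of 5 in its group. Without array 1 the obese difference was -1.53, without arrays 1 and 2 it was -1.42 (SE 0.28), and with the Alb level as a covariate it was -1.42 (SE 0.28). Liver had also been collected from animals of the study, and a part of liver RNA in the lean control values was not tested. These settings describe the values used to choose Bdh1, and the highest Alb level rests on 1 array. They cannot decide on such a part, and nothing is read from them about it. The settings with arrays 1 and 2 left out and with the covariate were chosen after the data had been seen. Without the low lean control array 3 the obese difference was -1.80, and without the low obese array 3 it was -1.38.

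Against obese muscle, Bdh1 stood higher on average with either compound, by less than the lean control difference. The difference was +0.43 (SE 0.24, 95% interval -0.07 to 0.92) with rosiglitazone, and 19 of 25 pairs of arrays had the treated array higher. With resveratrol it was +0.08 (SE 0.24, 95% interval -0.42 to 0.57), with 13 of 25 pairs higher, and it turned to -0.11 without obese array 3. The 2 differences share the obese arrays, which were used to choose the gene, and are given as a description.

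Rosiglitazone against resveratrol was the comparison whose means were free of the arrays used to choose Bdh1, and it was tested. Its SE, interval and p values were not free of them, because the spread was estimated over all groups, lean control and obese included. Bdh1 was at 2.71 with rosiglitazone and 2.36 with resveratrol, a log2 difference of +0.35 (SE 0.24, 95% interval -0.14 to 0.85) that did not pass (limma, adjusted p = 0.584, unadjusted p = 0.153). In 19 of 25 pairs the rosiglitazone array was higher. On the linear scale the interval ran from 0.907-fold to 1.80-fold. Over all genes, 2.04% were called in this comparison, 1.44% higher and 0.605% lower with rosiglitazone. Leaving out any 1 array gave differences between +0.25 and +0.52 and adjusted p values between 0.358 and 0.767. With only the rosiglitazone and resveratrol arrays in the fit, the difference of +0.35 had an SE of 0.18. It did not pass there either (limma, adjusted p = 0.470, unadjusted p = 0.0693). Some markers of other tissue components were called between these groups. Of 8 measured adipocyte markers of 9 listed, 3 were higher with rosiglitazone and none lower, namely Fabp4 at +1.36, Cidec at +1.26 and Lep at +0.83. The mean of the 8 ranged from 4.01 to 4.75 over rosiglitazone and from 3.48 to 3.93 over resveratrol arrays. The fibroblast markers, 11 measured of 12, had 1 called lower, Pdgfra at -0.68, and a mean from 4.89 to 5.54 against 5.53 to 6.08. The endothelial markers, 4 measured of 6, had 2 called higher, Vwf at +0.96 and Tek at +0.68, and a mean from 5.90 to 6.07 against 5.57 to 5.73. The other 2 were lower and not called, Flt1 at -0.38 (limma, adjusted p = 0.0947) and Cdh5 at -0.006. The liver marker Alb stood at +1.12 and was not called either (limma, adjusted p = 0.463). The part of these components in the Bdh1 values was not tested.

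The enzymes that act after Bdh1 were bright in all groups, and Oxct1, the rate-limiting step of ketone use, was lower with rosiglitazone than in lean control muscle. The lean control arrays 1 to 5 had Oxct1 at 9.17, 9.48, 9.37, 9.61 and 9.61 (mean 9.45, SD 0.18, n = 5). The rosiglitazone arrays had 9.03, 8.95, 8.88, 8.92 and 8.81 (mean 8.92, SD 0.08, n = 5). All rosiglitazone arrays lay below all lean control arrays, as in 2.94% of all genes. The log2 difference was -0.53 (limma, SE 0.11, adjusted p = 0.00501), and the same fit called 3.5% of all genes, 1.83% of them lower and 1.67% higher. Oxct1 was the 1 gene called among the 15 measured of the 22 other listed genes of ketone use, synthesis and transport, and it stayed called whichever array was left out (adjusted p from 0.00246 to 0.0204). In the same comparison 7 of 11 measured fibroblast markers were called lower and 5 of 8 adipocyte markers higher, and their part in the Oxct1 values was not tested. The fibroblast mean ranged from 5.94 to 6.16 over lean control and from 4.89 to 5.54 over rosiglitazone arrays, and the adipocyte mean from 3.13 to 3.62 and from 4.01 to 4.75.

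In obese muscle Oxct1 was at 9.06, 8.84, 8.82, 8.91 and 9.29 (mean 8.98, SD 0.19, n = 5), and array 5 reached into the lean control range. The difference from lean control was -0.46 (limma, SE 0.11) and did not pass (adjusted p = 0.113). It passed under trend and robust moderation of the variances (adjusted p = 0.0202) and without obese array 5 (adjusted p = 0.0373). Resveratrol muscle had a mean of 9.11 (SD 0.09, n = 5). Rosiglitazone stood at -0.06 against obese and at -0.19 against resveratrol, neither of them called (adjusted p = 0.859 and 0.472 in limma). Whether Bdh1 and Oxct1 differed by unequal amounts was not tested.

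The remaining genes of ketone use gave no call. Acat1 had means of 9.02 (SD 0.11) in lean control, 8.89 (SD 0.09) in obese, 8.82 (SD 0.06) in rosiglitazone and 8.94 (SD 0.12) in resveratrol muscle, n = 5 each. Bdh2, a cytosolic relative of Bdh1, stood at 3.29, 3.14, 3.16 and 2.98 in the same order. Aacs, which activates acetoacetate in the cytosol for lipid synthesis, stood at 3.07, 3.32, 3.37 and 3.004, and Oxct2b, known as a testis form of the transferase, at 3.47, 3.71, 3.61 and 3.62. The difference between any of these groups was at most 0.36 for these 4 genes, reached by Aacs between rosiglitazone and resveratrol, and was not called in limma in the comparisons with obese muscle, between the compounds or between obese and lean control.

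Among genes of ketone synthesis, 2 were measured. Hmgcll1, an extramitochondrial lyase, had means between 2.96 and 3.34. Acaa2, the last enzyme of mitochondrial beta-oxidation, was at 8.98 (SD 0.18) in obese and 8.67 (SD 0.15) in rosiglitazone muscle, n = 5 each. That difference of -0.30 (limma, SE 0.10) was not called (adjusted p = 0.149), and it was called under trend and robust moderation (adjusted p = 0.0358).

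Transporters of ketone bodies and lactate gave no call in these comparisons. Slc16a1, the main importer of 3-hydroxybutyrate in many tissues, had means of 6.93, 6.88, 6.84 and 6.99 in lean control, obese, rosiglitazone and resveratrol muscle. Slc16a3, the lactate exporter of glycolytic fibres, lay between 6.63 and 6.79, and Slc16a6, known as an exporter of 3-hydroxybutyrate from liver, between 4.09 and 4.34. Slc16a7 was at 2.52 in lean control and 2.01 in obese muscle, near the array medians, a log2 difference of -0.51 that did not pass (limma, adjusted p = 0.357). Emb, which escorts these transporters to the membrane, was at 2.56 in obese and 3.12 in rosiglitazone muscle, a difference of +0.56 that did not pass either (adjusted p = 0.439).

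Of the 15 measured genes of ketone use, synthesis and transport without Bdh1, limma called 0 between obese and lean control, 0 between rosiglitazone and obese, 0 between resveratrol and obese and 0 between rosiglitazone and resveratrol. The shares of all genes called were 0.00687%, 1.94%, 0% and 2.04%. At an unadjusted p under 0.05 the counts were 3, 3, 1 and 2 of 15, against 10.8%, 13.6%, 7.41% and 13% of all genes. Their median log2 difference was +0.03 between obese and lean control, where the median of all genes was -0.01, and 8 were positive and 7 negative.

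**Figure D2:**
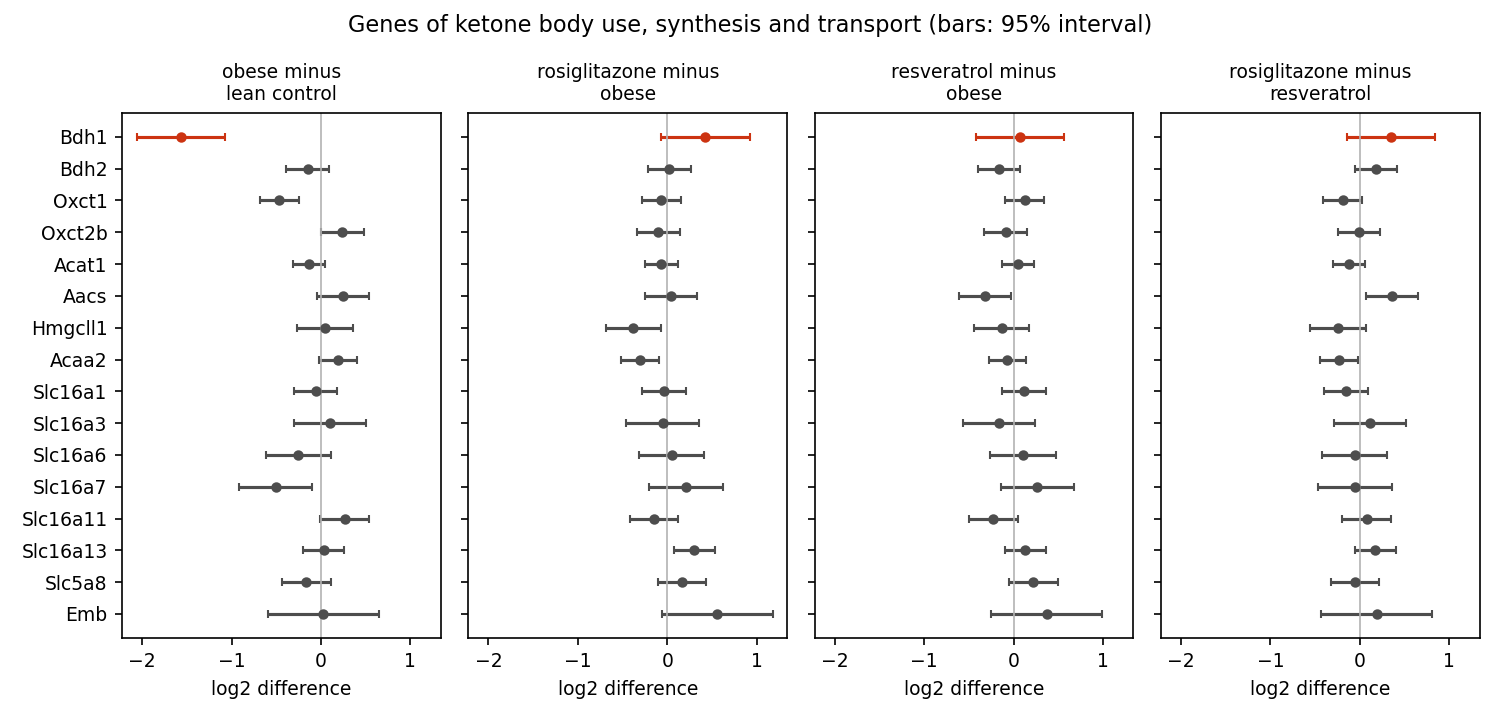
Log2 difference (horizontal axis) with its 95% interval from limma for Bdh1 (red) and the 15 other measured genes of ketone use, synthesis and transport (grey), in 4 comparisons. Bdh1 stands at -1.57 in obese against lean control, where the others lie between -0.51 and +0.26.

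Genes around the reaction gave no call in the same 4 comparisons. Of 11 measured regulators of 16 listed, Ppara, the receptor that drives fatty acid oxidation and ketogenesis, was at 6.05 in lean control, 5.70 in obese, 5.71 in rosiglitazone and 5.93 in resveratrol muscle, and obese minus lean control was -0.35 (limma, adjusted p = 0.245). Ppargc1a, a coactivator of mitochondrial genes that raises Bdh1 and Oxct1 in mouse muscle, stood at 7.72, 7.46, 7.60 and 7.66. Its partner Esrra stood at 4.18, 4.31, 4.32 and 4.11. Of the 5 measured genes of phosphatidylcholine synthesis, the lipid that Bdh1 needs, 1 was called in rosiglitazone against lean control. Chpt1 was lower there by -0.42 (limma, adjusted p = 0.0174), where 3.5% of all genes were called, 1.83% lower. With rosiglitazone Chpt1 stood at -0.27 against obese and -0.32 against resveratrol muscle, neither of them called (limma, adjusted p = 0.189 and 0.112). Pemt stood at 3.12 in lean control and 3.47 in obese muscle, +0.35 and not called (adjusted p = 0.212). The 11 measured matrix enzymes that share NADH or succinyl-CoA with ketone oxidation differed between obese and lean control by -0.20 (Idh3b) to +0.03 (Suclg1). Cs, citrate synthase, stood at 9.01 in lean control and 9.04 in obese muscle.

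The labelled tissue carried its defining genes. Of 6 muscle fibre markers, Acta1, Ckm, Mb and Des were measured, with a mean between 10.6 and 10.9 on every array. Slow fibre markers, 7 measured of 10, had a mean from 7.72 to 8.33 over lean control and 7.39 to 8.34 over obese arrays, and 6 of 7 were negative in obese against lean control with a median of -0.43, none of them called (2 of 7 at an unadjusted p under 0.05 in limma, against 10.8% of all genes). In the same comparison 10 of 11 measured fibroblast markers were negative, with a median of -0.34, none called and 3 at an unadjusted p under 0.05, and their mean ranged from 5.94 to 6.16 over lean control and 5.34 to 6.13 over obese arrays. The 3 measured erythroid markers of 8 listed were all positive, with a median of +0.33, none called and 2 at an unadjusted p under 0.05, and their mean ranged from 1.73 to 2.09 and from 2.05 to 2.38. Their part in the Bdh1 values was not tested. Myh7, the slow myosin, was at -0.43. The mitochondrial markers, 10 measured of 16, had a mean from 8.89 to 8.98 over lean control and 8.90 to 9.01 over obese arrays.

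Within the groups, Bdh1 was set against 16 measures fixed for this purpose, as deviations from the group means over 20 arrays. No relation passed after adjustment over the 16. The mean of the slow fibre markers came nearest, with Pearson's r = 0.505 (permutation p = 0.0447, adjusted p = 0.658) and Spearman's rho = 0.335 (permutation p = 0.184, adjusted p = 0.735), and r fell to 0.344 without the 2 arrays farthest from its median and to 0.11 with the replicate number as a block. The adipocyte mean had r = -0.431 (permutation p = 0.0866, adjusted p = 0.658) and rho = -0.373 (permutation p = 0.123, adjusted p = 0.735), and r was -0.287 without the 2 farthest arrays and turned to 0.0953 with the replicate number as a block. Oxct1 followed with r = 0.375 (permutation p = 0.198, adjusted p = 0.658) and rho = 0.355 (permutation p = 0.172, adjusted p = 0.735), and r was 0.419 without the 2 farthest arrays and 0.129 with the block. The 13 others had r between -0.366 (Bdh2) and 0.184 (the median of the array). The clock score, which contrasts Bmal1, Clock and Npas2 with Dbp and the Per genes, had r = -0.163 (permutation p = 0.551, adjusted p = 0.931) and rho = -0.077 (permutation p = 0.767, adjusted p = 0.892). No relation was adjusted below 0.05 with Spearman's rho either.

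**Figure D3:**
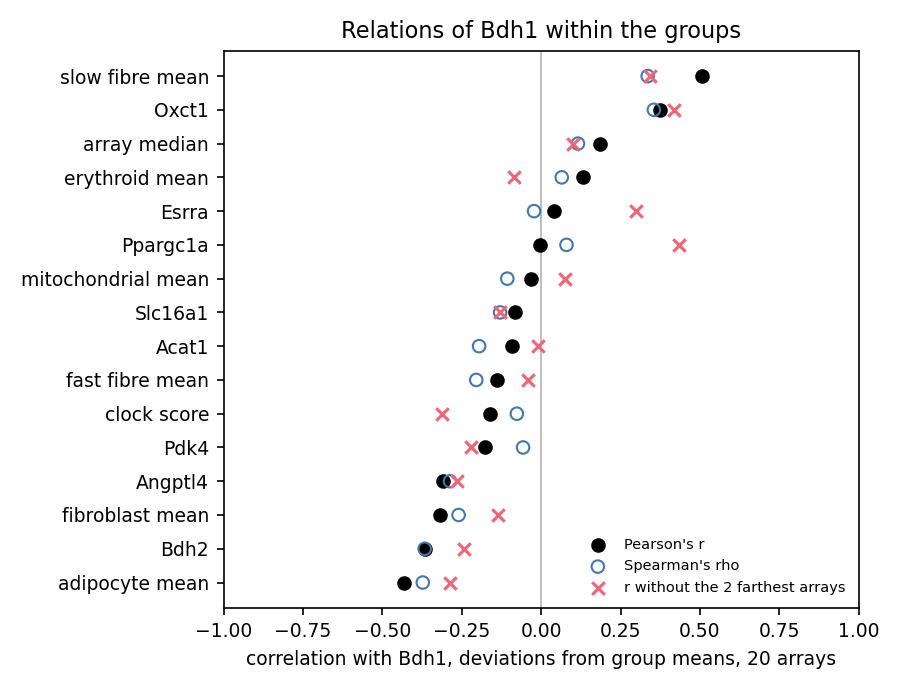
Correlation of Bdh1 (horizontal axis) with 16 measures over 20 arrays, after the group means were removed, as Pearson's r (filled), Spearman's rho (open) and r without the 2 arrays farthest from the median of the measure (crosses). The slow fibre mean has the highest r, 0.505, and the adipocyte mean the lowest, -0.431.

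The genes whose pattern over all 20 arrays was most like that of Bdh1 were sought among 7184 genes above the median brightness, as a description with no test. They share the arrays and, in part, the group means with Bdh1. Car3, a carbonic anhydrase abundant in slow fibres, adipocytes and liver, came first with r = 0.839 (rho = 0.725, and r = 0.775 without the 2 arrays farthest from the median of Bdh1). Its means were 11.001 (SD 0.19) in lean control, 10.66 (SD 0.15) in obese, 10.66 (SD 0.15) in rosiglitazone and 10.55 (SD 0.08) in resveratrol muscle, n = 5 each. As for Bdh1, array 3 was the lowest of the lean control group, at 10.70, against 10.96 to 11.18 on the others. Mpv17l, which encodes a peroxisomal and mitochondrial membrane protein, followed with r = 0.802 (rho = 0.759, and r = 0.741 without the 2 arrays). It stood at 4.30 in lean control, 3.46 in obese, 3.82 in rosiglitazone and 3.88 in resveratrol muscle. Aldh6a1, a mitochondrial dehydrogenase of valine breakdown, had r = 0.794, the glutathione-degrading enzyme gene Chac1 0.778 and Cir1 0.773. Aldh6a1 stood at 8.64 to 8.79 on the lean control arrays and at 8.22 to 8.46 on all others. Once the group means were removed, its r was only 0.116. It was listed for its likeness to Bdh1, which was itself chosen for a difference from lean control. Nothing is read from that gap.

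Once the group means were removed, the most like were Ripk2 (r = 0.733), an adaptor kinase of innate immunity, the ribosomal protein gene Rpl37a (0.724), Mpv17l (0.711), Lhfpl4 (0.703) and Bnip3 (0.701), a mitochondrial protein of mitophagy induced by hypoxia. Mpv17l was the 1 gene among the first 5 by both measures. Rpl37a, with group means from 3.25 to 3.52, and Lhfpl4, from 2.94 to 3.43, were dim. Signal above background was not shown at such levels. Without the 2 arrays where Bdh1 deviated most, r was 0.358 for Ripk2, 0.796 for Rpl37a, 0.614 for Mpv17l, 0.578 for Lhfpl4 and 0.546 for Bnip3, so that of Ripk2 rests in good part on those arrays.

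**Figure D4:**
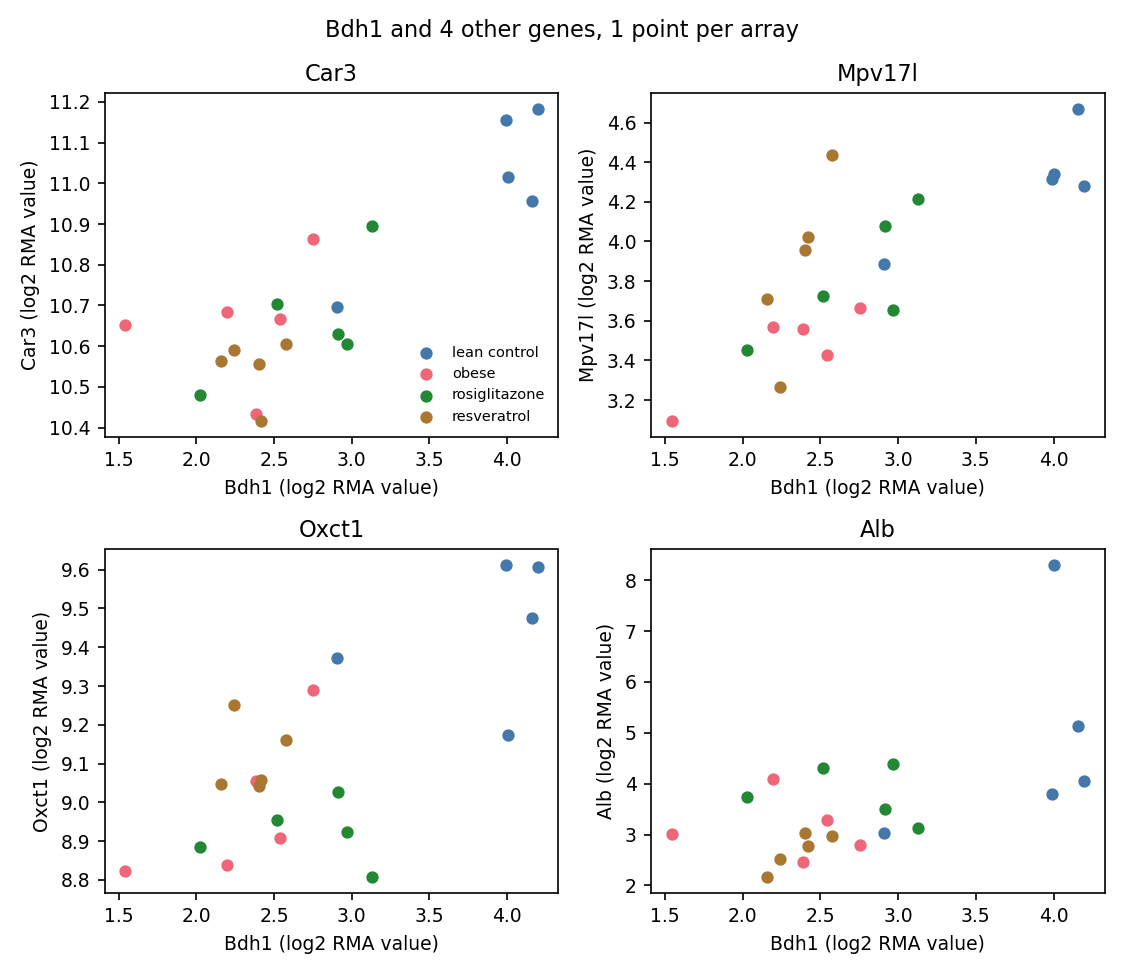
Log2 values of Car3, Mpv17l, Oxct1 and Alb (vertical axes) against Bdh1 (horizontal axis), 1 point per array, coloured by group. For Car3 and Mpv17l the lean control arrays sit at the right except array 3, at 10.70 and 3.89, and the 1 high Alb value, 8.30, belongs to lean control array 1.

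Of the 6 protein-coding genes nearest to Bdh1 on its chromosome 4 were measured, and limma called none of them between obese and lean control, between either compound and obese, or between the compounds. Dlg1, a scaffold protein gene, stood at 6.86 in lean control and 6.55 in obese muscle, a difference of -0.31 (limma, adjusted p = 0.280). Meltf, a membrane relative of transferrin, stood at 2.17 and 2.18, below the median brightness, and had r = -0.738 with Bdh1 once the group means were removed, a description over 20 arrays. The values were for Ppp1r2, an inhibitor of protein phosphatase, 7.396 and 7.36, and for Acap2 5.19 and 5.15. Pigz and Apod, the others, were not measured on a row of their own.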

How the data were processed

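RNA of red tibialis anterior from 20 rats had been hybridised to Rat Gene 2.1 ST array strips. The authors deposited log2 values from RMA, a method of background correction, normalisation between arrays and summary of probes into 1 value per transcript cluster. The paper names the affy and oligo packages, and versions are not given in the sources used here. Of 36685 rows, 14824 carried exactly 1 gene symbol in the platform annotation, and the brightest row of each of 14557 genes was used. Rows with several symbols or none were not used. Group means were fitted over all 20 arrays with limma 3.58.1 (R 4.3.3), with 16 residual and 6.35 prior degrees of freedom. P values were two-sided and adjusted by Benjamini-Hochberg over all genes, and a gene was called under 0.05. Precision is set by the 5 arrays a group, and the pooled SD of Bdh1 was 0.43. P values measure the spread between the arrays of a group. Relations within groups were tested with 100000 permutations within groups, two-sided (Python 3.11.15), and adjusted over the 16 relations. Some listed items are not reported here. The scripts were tested on simulated data. RefSeq tables of GRCr8 gave the promoter windows and gene order, and no protein table was used. Named were Bdh1, the listed genes of ketone metabolism and its surroundings, the 6 nearest genes, and the 5 most like Bdh1 among genes above the median brightness, without provisional symbols, receptor families of smell or small RNAs. The members and lists were chosen with earlier results of these data known. Alternatives fixed for the tests were median centring, quantile normalisation, trend and robust moderation, array weights, only the groups compared, every row of the table, rows of a gene averaged, only the brighter genes with Bdh1 kept in, a replicate block, a clock score as a covariate, and each array left out once. The Alb alternatives and the count in rosiglitazone against lean control were added after the data had been seen. Arrays of one number were not treated as pairs.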

Additional observations from a re-analysis of the deposited data

Results flagged for a closer look

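Within groups of 5 arrays, 3 values lay far from the other 4, by a gap to the nearest array over 0.71 of the range of the group. Bdh1 on lean control array 3 was 2.91, where the other lean control arrays lay between 3.99 and 4.197. Acat1 on rosiglitazone array 1 was 8.92, against 8.78 to 8.81 on the others. Hmgcll1 on resveratrol array 2 was 3.48, against 3.09 to 3.18. Chance alone flags about 1 in 20 groups, and 64 groups were examined, for Bdh1 and the 15 other ketone genes.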

How the results depend on the processing

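The test of Bdh1 between rosiglitazone and resveratrol stayed above the threshold in all 21 alternatives, with adjusted p values from 0.358 to 0.767. Leaving out 1 array at a time, the log2 difference ranged from 0.25 to 0.52 there, from -1.80 to -1.38 for obese minus lean control, from 0.24 to 0.60 for rosiglitazone minus obese, from -1.38 to -0.97 for rosiglitazone minus lean control, from -1.73 to -1.41 for resveratrol minus lean control, and from -0.11 to 0.19 for resveratrol minus obese, the sign turning without obese replicate 3 (-0.11). The count of other ketone genes called ranged from 0 to 1 in obese against lean control, where Oxct1 passed without obese replicate 5, and from 1 to 2 in rosiglitazone against lean control, where Slc16a13 (+0.42) joined Oxct1 without rosiglitazone replicate 1. With trend and robust moderation it was 1 instead of 0 in obese against lean control (Oxct1) and 1 instead of 0 in rosiglitazone against obese (Acaa2). The count of relations within groups that passed was 0 in all 24 alternatives, with the array median left out under median centring. The replicate numbers were not taken as pairs: over the brighter genes, deviations of arrays with the same number correlated by -0.033 on average over 30 pairs (from -0.289 to 0.119), and 2 of 20 arrays correlated best with their own number. For Bdh1 alone, r over the 5 numbers was 0.984 between obese and rosiglitazone, 0.896 between lean control and obese and 0.839 between lean control and rosiglitazone. Between resveratrol and lean control, obese and rosiglitazone it was -0.150, -0.550 and -0.603. With the replicate block, the SE of a Bdh1 difference was 0.17 instead of 0.24, the difference between rosiglitazone and resveratrol stayed at 0.35 (adjusted p = 0.428), and no count of calls among the ketone genes changed, while r moved from 0.505 to 0.11 for the slow fibre mean, from -0.431 to 0.0953 for the adipocyte mean and from 0.375 to 0.129 for Oxct1. The arrays give no measure of signal over background, which limits the Bdh1 values near 2.5 most.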

Other observations

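Genes that ran opposite to Bdh1 within the groups were also listed, among the genes above the median brightness only, as a description with no test. Sh3bp4 had r = -0.725, Trabd2b -0.710, Foxb2 -0.693, Acsf3, the mitochondrial malonyl-CoA synthetase, -0.656, and Ccdc17 -0.650, over 20 arrays with the group means removed. Without the 2 arrays where Bdh1 deviated most, these became -0.682, -0.381, -0.479, -0.560 and -0.775. Trabd2b, Foxb2 and Ccdc17 were dim, with group means from 2.70 to 3.53, where signal above background was not shown. Acsf3 stood at 4.71 (SD 0.12) in lean control, 4.75 (SD 0.14) in obese, 4.30 (SD 0.17) in rosiglitazone and 4.66 (SD 0.24) in resveratrol muscle, n = 5 each. Of the 7184 genes, 29 had an r with Bdh1 above 0.7 over all arrays, and 5 had one once the group means were removed.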
